A study of Mus musculus with 27 samples.

Results

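The late cornified envelope (Lce) genes on the array were followed across 9 groups of mouse esophagus. Array probes whose gene name in the scanner files was Lce1a1, Lce1a2, Lce1b, Lce1e, Lce1f, Lce1g, Lce1h, Lce1i, Lce1m or Lce3c were taken, which gave 10 genes and 13 probes of the 28146 gene names and 41174 probes on the array. The 3 genes with 2 probes were Lce1b, Lce1g and Lce3c. Each gene was read as the mean over its probes of the log2 ratio of Cy5 (the sample) to Cy3 (a reference RNA pooled from cell lines, the same for every array), and spots that the scanner software marked as outliers were kept. Of the Lce genes, 4 more were on the array (Lce1c, Lce1d, Lce1l and Lce3f) and were read as a comparison list.

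By the labels, wild-type mice were C57BL/6J and the knockouts were on that background. Wild-type samples came from embryonic days 11.5 and 15.5 (E11.5, E15.5), from birth (P0), from postnatal day 7 (P7) and from adults of 8 weeks. Nrf2-/- mice were sampled at P7 and as adults, and Keap1-/- and Nrf2-/-Keap1-/- (double knockout) mice at P7. Each of the 9 groups had 3 arrays, and the study's methods name individual esophagi as the source of RNA. RNA was from the whole esophagus up to P7 and from the isolated epithelium in adults, so age and tissue cannot be told apart in comparisons of P7 with adults. Of the wild-type ages only E11.5 and E15.5 shared a slide, so the other steps between ages cannot be told apart from slide. Wild-type and knockout arrays of the same age shared no slide either, so genotype and slide cannot be told apart in those comparisons. Keap1-/- mice develop a thickened keratin layer in the esophagus and die young. No Keap1-/- or double knockout adults were among the samples. As a check of the labels, the log2 ratio of Nfe2l2, which encodes NRF2, was lower than in wild-type by 3.63 in Nrf2-/- mice at P7 (SE 0.13, limma adjusted p = 2.38e-07), by 3.86 in double knockouts (SE 0.13, limma adjusted p = 1.47e-07) and by 4.30 in Nrf2-/- adults (SE 0.23, limma adjusted p = 0.000537). Keap1 did not pass the test in Keap1-/- mice (log2 ratio change -0.45, SE 0.22, limma adjusted p = 0.145) or in double knockouts (-0.99, SE 0.22, limma adjusted p = 0.0793) on the ratio scale, and was called lower in Keap1-/- mice in Cy5 alone (-0.78, SE 0.22, limma adjusted p = 0.0204). Whether its probe lies in the deleted part was not examined.

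LCE proteins are small proteins that transglutaminases crosslink late in keratinocyte differentiation into the cornified envelope, the insoluble shell under the plasma membrane of the outermost cells. Their genes lie in the epidermal differentiation complex, a gene cluster that also holds the genes of loricrin, involucrin, filaggrin and the small proline-rich proteins. The mouse esophagus, unlike the human organ, carries a keratin layer on its squamous epithelium. NRF2 is a transcription factor that activates antioxidant and detoxification genes, and KEAP1 targets it for degradation.

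All 10 genes were matched by accession to RefSeq and lay on chromosome 3 (GRCm38.p6), between 92646532 (Lce1a1) and 93019061 (Lce1m), a span of 372.5 kb that holds Lce3c at 92944486 to 92945730. RefSeq promoters were matched for 9 of the 10, all but Lce1f. The 100 bases before the transcription start are shown for 6 members, to set Lce1 neighbours in the cluster beside Lce3c, the earliest member called, and Lce1m, which was not called from P0 to P7. Capitals mark ACTGTCTCAC, the longest run held by at least 7 of the 9 member promoters, and the TATA-like run ATAAAA. Each sequence is on the gene's own strand, the minus strand for the Lce1 genes shown and the plus strand for Lce3c, and ends at the base before the start.
Lce1a1, chr3:92648308-92648407, minus strand, GRCm38.p6: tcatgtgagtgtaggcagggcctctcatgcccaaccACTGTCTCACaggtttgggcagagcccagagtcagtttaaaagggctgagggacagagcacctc
Lce1b, chr3:92656927-92657026, minus strand, GRCm38.p6: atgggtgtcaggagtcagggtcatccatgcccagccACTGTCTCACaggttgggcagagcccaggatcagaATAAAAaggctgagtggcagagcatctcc
Lce1g, chr3:92752339-92752438, minus strand, GRCm38.p6: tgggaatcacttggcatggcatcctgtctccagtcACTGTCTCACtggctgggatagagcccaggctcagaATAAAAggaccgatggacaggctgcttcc
Lce1h, chr3:92765066-92765165, minus strand, GRCm38.p6: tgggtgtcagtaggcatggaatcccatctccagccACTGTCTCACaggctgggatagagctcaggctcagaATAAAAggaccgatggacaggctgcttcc
Lce1m, chr3:93019062-93019161, minus strand, GRCm38.p6: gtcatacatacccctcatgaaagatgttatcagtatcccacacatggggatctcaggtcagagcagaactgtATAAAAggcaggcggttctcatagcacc
Lce3c, chr3:92944386-92944485, plus strand, GRCm38.p6: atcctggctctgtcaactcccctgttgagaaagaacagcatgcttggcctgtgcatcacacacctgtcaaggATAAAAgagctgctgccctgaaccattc

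Over these 100 positions Lce1g and Lce1h were identical at 90 bases, and Lce1h and Lce1i at 89. Pairs that involved Lce1m or Lce3c were identical at 25 to 38 bases, and pairs of Lce1a1 with Lce1a2, Lce1e, Lce1g, Lce1h and Lce1i at 20 to 26, counted at the same positions with no gaps. ACTGTCTCAC begins 64 bases before the start in Lce1a1 and 65 in those it was paired with, so the shared run did not line up. ATAAAA begins 28 bases before the start in Lce1m and Lce3c and 29 in Lce1b, Lce1a2, Lce1e, Lce1g, Lce1h and Lce1i. Pairs of the former with the latter did not line up there either, and Lce1m with Lce3c, which did, had 38. The low counts of Lce1a1 and of these pairs are therefore not a measure of how alike the sequences are. Searched over both strands of the 250 bases before the start, ACTGTCTCAC was found in 7 of 9 members, all but Lce1m and Lce3c, and in 0.155% of all 27025 promoters. It was picked for its presence in the members, so their count is a description. ATAAAA, which overlaps the TATA box TATAAA in Lce1m, was found in 8 of 9 members, all but Lce1a1, and in 17.6% of all promoters. In those 8 it began 28 or 29 bases before the start on the gene's strand, and 1.55% of all promoters had it on that strand beginning between 25 and 35 bases before the start. TATAAA itself was in 1 member (Lce1m) and 13% of promoters. The AP-1 sequence TGANTCA was in 0 of 9 members and 6.87% of promoters, and the core of the antioxidant response element, TGACNNNGC, was in 1 member (Lce3c) and 10.1% of promoters. These are matches of letters and were not tested as sites.

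The family is similar in sequence, and the 60-base probes were compared with each other. Of 75 pairs of probes from different members, 2 shared a run of 15 bases or more (Lce1e with Lce1i, and Lce1g with Lce1i, 17 bases each), the longest found. In the best alignment with no gaps, at most 33 bases matched between members, as in 33 of 43 for Lce1e with Lce1i and Lce1f with Lce1g. Lce1d, of the comparison list, matched Lce1i at 46 of 60. RefSeq holds 21 Lce genes, and those with no probe here were not compared. Binding of a probe to another Lce transcript was not tested. Of the Lce3c probes, 1 also lists Lce3b among its transcripts, so its signal cannot be assigned to Lce3c alone. The Lce1g probes differed. At P7 in wild-type mice, the Cy5 intensity of the first was 786, 676 and 190 on the 3 arrays, and that of the second 71, 64 and 62, close to its values of 86, 51 and 98 at E11.5. The second probe reached 221 to 417 in wild-type adults. Changes of Lce1g are therefore means of a responsive and a nearly silent probe.

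The signal of the members covered a wide range, and the reference channel moved with it. Over the 39 member spots of each group, the median Cy5 intensity was 73 at E11.5, 66 at E15.5, 95 at P0, 1097 at P7 and 105894 in adults of the wild-type. The median Cy3 intensity of the same spots was 136, 121, 139, 326 and 7491, although the reference RNA was the same. For Lce1a1, Cy3 was 153, 141 and 180 at E11.5, 607, 563 and 213 at P7 and 24539, 18367 and 15072 in wild-type adults, where Cy5 was 221082, 144991 and 217856. From embryos to wild-type adults, the geometric mean of Cy3 rose by a median of 56.4-fold over the 13 probes and that of Cy5 by a median of 1615-fold. No background was subtracted from these intensities. Of the 39 member spots, 27 at E11.5 and 21 at E15.5 were well above background in Cy5, so the Cy5 fold depends on the background level. The rise was not limited to the members. Among other probes with Cy3 under 200 in embryos, Cy3 rose more than 4-fold in 95.8% of the 24 with Cy5 over 50000 in wild-type adults, in 20.8% of the 212 between 1000 and 10000, and in 0 of the 17198 under 100. No member spot was marked saturated among 351. The part of the Cy3 rise in the results was not tested. The log2 ratio is smaller than the change of Cy5 wherever Cy3 rises, so the change of the Cy5 channel alone, scaled between arrays on the mean log intensity of both channels (Aquantile), is given beside each ratio.

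**Figure D1:**
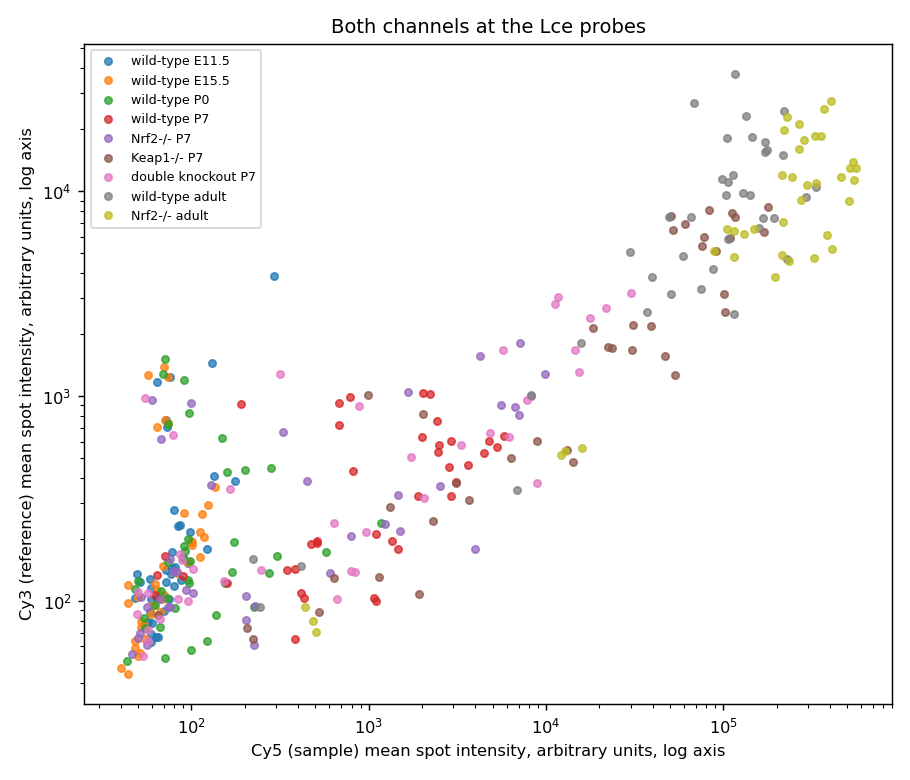
Cy3 (reference) against Cy5 (sample) mean spot intensity, both on log axes in arbitrary units, for the 351 spots of the 13 member probes on 27 arrays, coloured by group. Median Cy3 per group goes from 121 at E15.5 to 8997 in Nrf2-/- adults as median Cy5 goes from 66 to 245760, and the points at Cy5 near 70 with Cy3 near 1000 include an Lce1g probe.

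In wild-type mice Lce3c was called higher at P0 than at E15.5, and all 10 genes were called higher in the step from E11.5 to P7. At E11.5 and E15.5 the mean log2 ratios of 8 members lay within 1 of the reference level, and those of Lce1g (-1.005 and -1.34) and Lce1i (-1.42 and -1.85) lay below it. At P7 the means ran from 0.45 for Lce1g to 4.80 for Lce1a1. The F-test over E11.5, E15.5, P0 and P7 called all 10 (limma adjusted p from 0.000134 for Lce1e to 0.0367 for Lce1m), against 30.0% of 19704 tested genes. From E11.5 to E15.5 no member was called (limma, log2 ratio changes -0.43 to 0.01, smallest adjusted p = 0.995), and 0% of all genes were. Of the members, Lce1a2 and Lce1h were not well above background on any embryonic array. The arrays labelled E11.5 replicate 3 and E15.5 replicate 1 resembled the other group: the mean log2 Cy5 of 4 ciliated airway markers was 11.68 on the former against 7.64 and 7.37 on the other E11.5 arrays, and 7.76 on the latter against 12.12 and 11.30. Leaving out both gave the same counts of members called in the 4 comparisons between these ages, and 9 of 10 in the F-test. In bulk tissue, fewer cells of a type and less RNA per cell cannot be told apart.

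Lce3c was called higher at P0 than at E15.5. Its log2 ratio was -0.08, -0.08 and -0.13 at E15.5 and 2.14, 3.53 and 0.88 at P0, with no overlap, as in 43.9% of all genes. The change from E15.5 to P0 was 2.28 (SE 0.50, limma adjusted p = 0.0106), and 2.42 in Cy5 alone (SE 0.61, limma adjusted p = 0.0230). Lce3c was the only member called higher in this interval on either scale, where 11.3% of all genes were called higher by ratio and 9.05% by Cy5 alone. For the 10 members, 1 call is close to these shares. The other 9 changed by 0.11 to 0.93 on the ratio scale without passing the test, and the call of Lce3c was lost when all 27 arrays were fitted together, with each spot's own local background, and in Cy5 alone without E15.5 replicate 1 or without E15.5 replicate 3. The P0 arrays were ordered alike for all members: replicate 2 was highest for 10 of 10 and replicate 3 lowest for 10 of 10. For Lce1a1, the first member along the cluster, the P0 log2 ratios were 1.09, 2.23 and 0.28, so that 2 of 3 arrays lay above the E15.5 range of 0.06 to 0.49.

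In the first week after birth most members rose. Of the 10 genes 9 were called higher on the log2 ratio, where 1.47% of all genes were called higher, with a median change of 3.15 over the members and 0.01 over all genes. With all 27 arrays in 1 fit, 5 members were called. Of the 4 other Lce genes on the array, 2 were called higher on the log2 ratio and 3 in Cy5 alone. The median log2 ratio change over these 4 was 3.008. Among them Lce1l had a log2 ratio change of 0.07 (SE 0.10) and was not called. The arrays of P0 and P7 did not overlap for 10 of 10 members, and for 28.0% of all genes. Lce1a2 went from -0.21 to 1.26 at P0 to 3.24 to 5.06 at P7 (log2 ratio change 3.86, SE 0.44, limma adjusted p = 0.00156), and was not well above background in Cy5 on P0 replicate 3. Lce1i, Lce1f, Lce1a1 and Lce1b rose by 3.83, 3.78, 3.60 and 3.53. Lce1g rose least among those called (1.68, SE 0.31, limma adjusted p = 0.0204). In Cy5 alone its change was 1.46 and did not pass (SE 0.36, limma adjusted p = 0.0712), so that 8 members were called on that scale, where 1.08% of all genes were called higher, with a median change of 4.07 over the members.

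Lce1m did not pass from P0 to P7. Its log2 ratio was 0.20, 0.25 and -0.01 at P0 and 2.81, 2.89 and 0.30 at P7, a change of 1.85 (SE 0.54, limma adjusted p = 0.123). Replicate 3 was the lowest of the wild-type P7 arrays for 10 of 10 members, and for Lce1m it lay close to the P0 arrays. The Cy5 intensity of Lce1m was 382, 345 and 89 at P7, against 91, 90 and 92 at P0. Leaving out each array in turn gave 7 to 9 members called for this interval. Over the whole interval E11.5 to P7, all 10 members were called higher (log2 ratio changes 1.45 to 4.59), against 16.8% of all genes, and 9 by Cy5 alone (all but Lce1g), against 14.4%. No E11.5 array measured Lce1a2 or Lce1h well above background in Cy5. Their level at E11.5 may lie below the measured values, so the measured folds may be too small. By these values Lce1a2 was 24.5-fold (log2 Cy5 change 4.62, SE 0.54) and Lce1h 8.25-fold (3.045, SE 0.44) higher at P7. Both folds are point estimates and, given the SE, not lower limits.

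**Figure D2:**
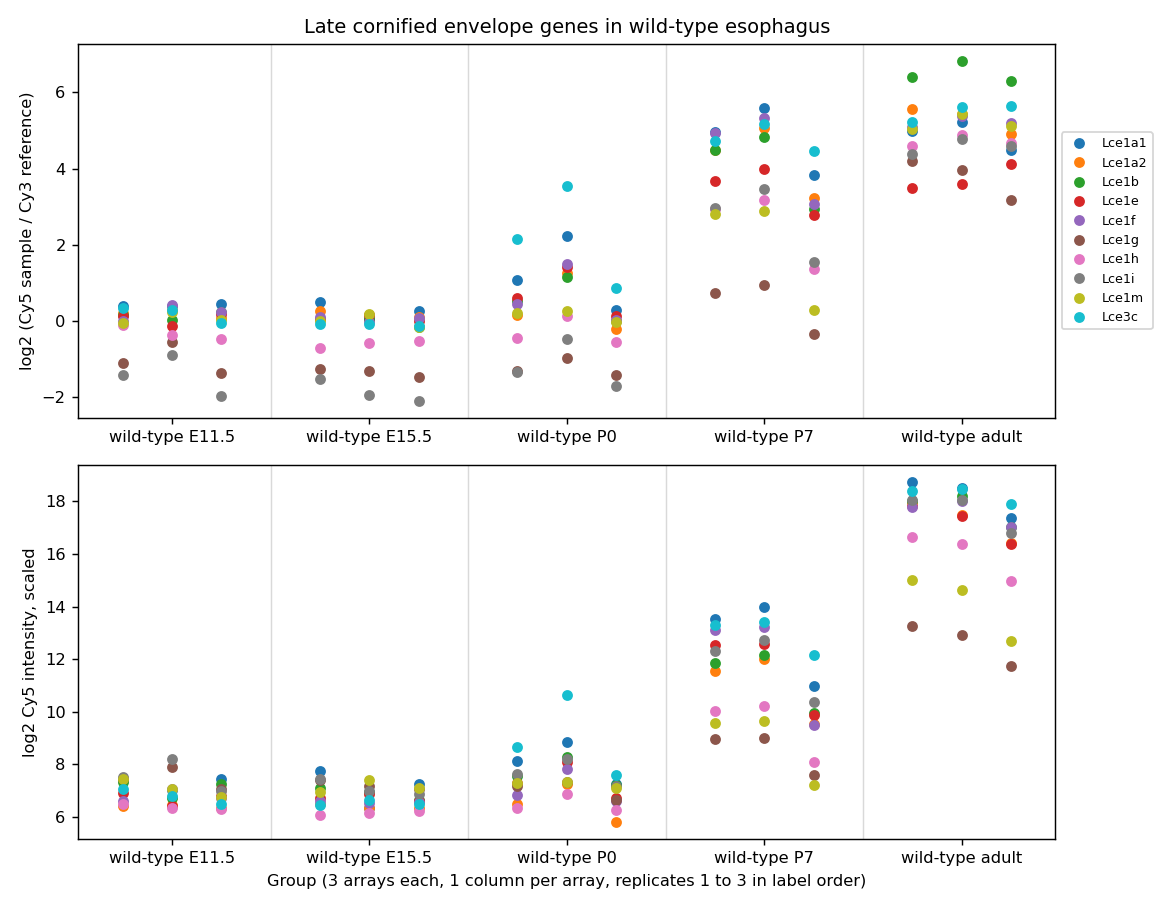
Values of the 10 members on the 15 wild-type arrays as log2 ratio to the reference (top) and log2 scaled Cy5 intensity (bottom), with 1 column of points per array and 1 colour per gene. On the ratio scale the group means of members lay between 0.45 and 4.80 at P7 and between 3.73 and 6.51 in adults, while in Cy5 the 2 groups are clearly separated for every member.

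From P7 to the adult epithelium the size of the rise depended on the channel. On the log2 ratio 6 of 10 members were called higher, where 20.0% of all genes were: Lce1g (3.33, SE 0.38, limma adjusted p = 0.000558), Lce1m (3.19, SE 0.64, limma adjusted p = 0.00611), Lce1b (2.42), Lce1h (2.23), Lce1i (1.90) and Lce3c (0.70). The other 4, Lce1a1, Lce1e, Lce1f and Lce1a2, changed by 0.11 to 1.04 without passing. With each spot's own local background, with scaling between arrays or with all 27 arrays in 1 fit, 3 members were called. The arrays of P7 and adults did not overlap by ratio for 6 of 10 members, and for 56.0% of all genes. In Cy5 alone all 10 were called higher, by 4.12 to 6.55 on the log2 scale (limma adjusted p from 8.06e-05 to 0.00331), against 20.6% of all genes, and the arrays did not overlap for any of the 10. The median over members was 1.47 by ratio and 5.60 by Cy5.

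Lce1a1 shows the difference between the scales. Its log2 ratio was 4.97, 5.57 and 3.84 at P7 and 4.995, 5.21 and 4.50 in adults, which overlap (change 0.11, 95% interval -0.87 to 1.08, limma adjusted p = 0.858). Its log2 Cy5 was 13.53, 14.00 and 11.00 at P7 and 18.74, 18.52 and 17.36 in adults, a change of 5.36 (SE 0.78, limma adjusted p = 0.00177). For Lce1b, by contrast, the ratio also rose, from 4.50, 4.82 and 2.95 to 6.40, 6.82 and 6.30, and no arrays overlapped. For Lce1m the log2 ratio was 5.03, 5.44 and 5.11 in adults, and its Cy5 intensity 15787, 8252 and 6845. Its Cy3 intensity was 1810, 1014 and 349 on these arrays, and 143, 141 and 133 at P7.

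**Figure D3:**
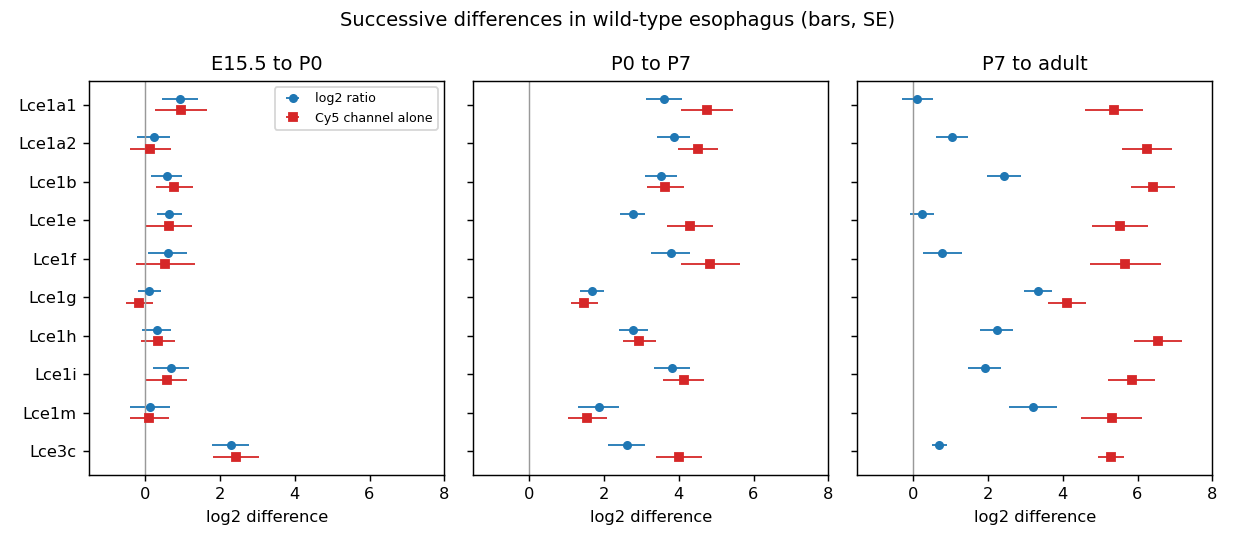
Log2 differences between successive wild-type groups for each member, by log2 ratio (circles) and by Cy5 alone (squares), with bars of 1 SE. From E15.5 to P0 Lce3c stands out, at 2.28 by ratio; from P7 to adult every square lies between 4.12 and 6.55 while the circles run from 0.11 to 3.33.

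In Nrf2-/- mice the members were also higher in adults. From P7 to adult 9 of 10 members were called higher by ratio in them (all but Lce1a1, changes 1.33 to 3.94 over the 10), against 27.1% of all genes, and 10 of 10 by Cy5 alone (4.67 to 8.21), against 28.5%. All Nrf2-/- P7 arrays were in another scan than the adult ones, and with scan as a block 1 member was called. Markers of tissue changed as well between P7 and adult. In the wild-type 7 of 7 skeletal muscle and 6 of 6 fibroblast markers were called lower by ratio, where 4141 of all 18009 genes were. Of the basal keratinocyte markers 2 of 7 were called higher (median 0.28), and of the suprabasal esophageal ones 2 of 4 (median 0.46). Of all genes 20.0% were called higher. The part of these markers in the rise was not tested.

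At P7 the knockouts were compared with wild-type mice to see whether NRF2 or KEAP1 affects these genes. Arrays of the same genotype differed widely. Averaged over the members, the log2 Cy5 was 11.68, 11.89 and 9.52 in wild-type, 12.62, 8.74 and 6.73 in Nrf2-/-, 11.68, 16.07 and 15.98 in Keap1-/- and 6.77, 13.42 and 10.12 in double knockout mice. Nrf2-/- replicate 3 and double knockout replicate 1 lay at the embryonic level (6.73 to 7.07 over the 6 embryonic arrays), with 5 of 10 members well above background on each, and Keap1-/- replicates 2 and 3 lay near the adult range (15.82 to 17.16 in the wild-type). The mean log2 Cy5 of 7 basal markers was 13.69 on Nrf2-/- replicate 3 and 13.84 on double knockout replicate 1. The range over the 12 arrays at P7 was 13.69 to 14.44. That of 4 suprabasal markers was 14.24 and 14.31 on the same arrays, within a range of 12.68 to 15.54. Keap1-/- replicate 1 had the lowest suprabasal value, 12.68. The mean of 9 skin and hair markers, which include loricrin and filaggrin of the cornified layer, was ordered like the members within the Nrf2-/- arrays (9.74, 8.36 and 7.75), the double knockout arrays (7.87, 9.73 and 8.69) and the wild-type arrays (9.28, 9.56 and 8.28), and was lowest on the same array in Keap1-/- mice (8.08, 9.21 and 9.24). Of these the hair keratins Krt27 and Krt71 were well above background on 0 of the 12 arrays, and Krt25 on 1. The part of these differences in the results was not tested.

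**Figure D4:**
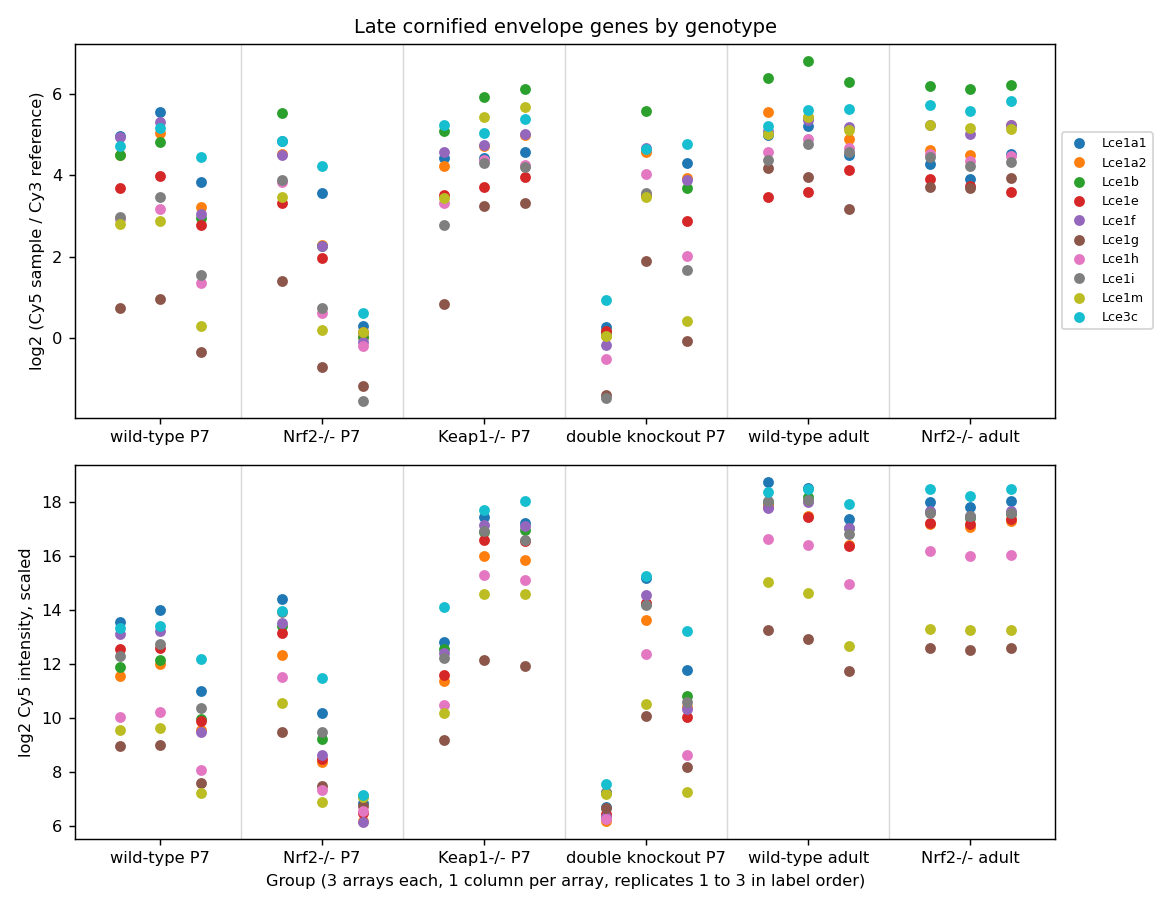
Values of the 10 members by genotype at P7 and in adults, as log2 ratio to the reference (top) and log2 scaled Cy5 intensity (bottom), with 1 column of points per array and 1 colour per gene. Within Nrf2-/- and double knockout mice at P7, the mean of members in Cy5 runs from 6.73 to 12.62 and from 6.77 to 13.42, and the adult arrays of both genotypes lie together.

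Loss of NRF2 at P7 gave no call among the members. All 10 log2 ratio changes from wild-type were negative, from -2.22 (Lce1f) to -0.61 (Lce1g), with SE of 0.88 to 1.44 and adjusted p from 0.514 to 0.847 (limma), where 0.0157% of all genes were called. The values of Lce1f were 4.50, 2.26 and -0.09 in Nrf2-/- against 4.94, 5.32 and 3.06 in wild-type mice, which overlap. The 95% interval of its difference ran from -5.08 to 0.65, which holds both a large decrease and a small increase. Double knockouts likewise gave no call against wild-type (changes -1.73 to -0.31, smallest limma adjusted p = 0.479), where 0.430% of all genes were called, nor against Nrf2-/- mice (0.05 to 0.57, smallest limma adjusted p = 0.957), where 0% were. Within the slide that held 1 double knockout and 3 Nrf2-/- arrays, the double knockout array differed from the mean of the others by a median of -2.27 over the members on the log2 ratio. That array was replicate 1, with a mean log2 Cy5 of 6.77 over the members, close to Nrf2-/- replicate 3 (6.73). The other double knockout arrays, at 13.42 and 10.12, were on another slide.

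Of the 10 members only Lce1m was called higher in Keap1-/- than in wild-type mice at P7, and by Cy5 alone. Lce1m log2 Cy5 was 10.16, 14.60 and 14.60 in Keap1-/- and 9.56, 9.64 and 7.20 in wild-type mice, with no overlap (change 4.32, SE 1.44, limma adjusted p = 0.0415). By ratio it was 3.44, 5.45 and 5.69 against 2.81, 2.89 and 0.30 (change 2.86, SE 1.16, limma adjusted p = 0.0809), which did not pass. No member was called by ratio (changes -0.32 to 2.86), where 15.4% of all genes were called higher, and 1 by Cy5 alone, where 14.8% were. These counts do not exceed the shares of all genes. The 9 members other than Lce1m had Cy5 changes of 2.56 to 4.19 with SE of 1.03 to 2.33. Keap1-/- replicate 1 was the lowest of its group in Cy5 for 10 of 10 members. Without it 1 member was called by ratio and 3 by Cy5. By Cy5 no member was called with a replicate block, without Keap1-/- replicate 2 or 3, without double knockout replicate 3, or without any 1 of the wild-type arrays. The mean log2 ratio of 6 fibroblast markers was 0.92, 0.46 and 0.64 in Keap1-/- against 1.75, 2.07 and 1.98 in wild-type mice, and that of 3 simple columnar markers -3.85, -3.93 and -3.63 against 1.06, 0.43 and -0.01. In wild-type adult epithelium the columnar markers were at -3.90, -3.85 and -3.48. Their part in the result was not tested. The 3 Keap1-/- arrays were alone on their slide and in their scan, so genotype and batch cannot be told apart in any comparison with them.

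Against double knockouts, Lce1m was called higher in Keap1-/- mice on both scales. Its log2 ratio was 0.04, 3.47 and 0.42 in double knockouts, against 3.44, 5.45 and 5.69 (change 3.55, SE 1.16, limma adjusted p = 0.0369), and 3.44 and 3.47 overlap. The other 9 members had log2 ratio changes of 1.42 to 2.58 and did not pass, where 15.1% of all genes were called higher by ratio and 12.3% by Cy5 alone. For the 10 members, 1 call on each scale is below these shares. Without Keap1-/- replicate 2 or 3, or without double knockout replicate 1 or 3, no member was called on either scale. Without Keap1-/- replicate 1, 2 members were called by ratio and 4 by Cy5, and without double knockout replicate 2, 2 and 5. This comparison shares its Keap1-/- arrays with the one against wild-type mice.

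In adults Nrf2-/- and wild-type epithelium were close. The log2 ratio changes of members were -0.66 to 0.23 with SE of 0.13 to 0.25, none was called (limma, smallest adjusted p = 0.211), and 0.499% of all genes were. Lce1a1 had the largest difference (log2 ratio 4.28, 3.92 and 4.52 against 4.995, 5.21 and 4.50), and Lce3c was at 5.73, 5.58 and 5.83 against 5.21, 5.62 and 5.63. By Cy5 alone the changes were -0.84 to 0.14 and none was called, against 1.04% of all genes, but without wild-type adult replicate 3, the lowest wild-type adult array for 10 of 10 members in Cy5, 4 members were called lower. That array was the only wild-type adult one in a scan that also held Nrf2-/- adults, so without it genotype and scan cannot be told apart. The share of all genes called without that array is not given, so nothing is concluded from the 4 calls. The difference of NRF2 loss between adult and P7, tested as an interaction, was called for none of the 10 (0.61 to 2.17, limma, smallest adjusted p = 0.490), against 0.0980% of all genes.

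The members varied together. Pearson's r of the log2 ratio over the 27 arrays had a median of 0.956 over 45 pairs of members and a lowest value of 0.794. Over the 12 arrays at P7 alone, the median for Cy5 was 0.979. The arrays share the reference, and the shared rise of Cy3 enters each ratio. The genes whose 9 group means were most like the mean of the members, among 3594 other genes with a range of group means of at least 2 on the log2 scale, were Lce1c (r = 0.998), a transcript known by an Ensembl number (0.994), Degs2 (0.993), which encodes a desaturase of ceramide synthesis, Otop3 (0.988), BC015286 (0.987), Il1f5 (0.981), an interleukin 1 family member, Ngef (0.981), 6030499A19Rik (0.981), Cdsn (0.980), which encodes corneodesmosin of the cornified layer, and Acer1 (0.980), which encodes an alkaline ceramidase. Of the other Lce genes on the array, Lce1d was at r = 0.958, Lce3f at 0.917 and Lce1l at 0.832.

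Other genes of the cornified envelope were taken from fixed lists. Among 17 tested genes of the epidermal differentiation complex outside the Lce family, 4 were called higher between birth and P7 (median log2 ratio change 0.75), with Kprp, a keratinocyte proline-rich protein, at 3.96 (SE 0.63, limma adjusted p = 0.00874) and Rptn, repetin, at 2.11 (SE 0.37, limma adjusted p = 0.0156). Between E15.5 and birth 13 of that list were called higher. The steps differ in calls over all genes, of which 11.3% were called higher in the earlier and 1.47% in the later. Of 15 genes of the envelope scaffold and its crosslinking, 10 were called higher before birth and 2 in the week after it, Calm4 (1.985) and Cdsn (1.51). From P7 to adult 10 of 20 tested genes of the former list were called higher and 4 lower, with Hrnr, hornerin, at 5.18 and Sprr2f at -4.28. Of the latter list 10 were called higher, with Casp14, a protease of cornification, at 4.004. Of all 18009 genes tested in this step, 20.0% were called higher and 4141 genes lower. In Keap1-/- against wild-type mice at P7, 5 of 19 tested genes of the former list were called higher and 2 lower. Of the latter list 7 were called higher and 2 lower. The increases were led by Sprr2h (3.85) in the former list and by Casp14 (2.74) in the latter. Of all 19063 genes tested there, 15.4% were called higher and 3420 genes lower. Among 14 regulators of terminal differentiation, 9 were called higher from P7 to adult, with Ovol1 at 2.66 and Grhl1 at 2.26, and none in the week after birth. Of 3 tested keratins typical of epidermis, Krt79 alone was called higher from P7 to adult (2.24).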

How the data were processed

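Per the file headers, arrays were scanned on an Agilent scanner and read by 2 versions of Feature Extraction (10.5.1.1 and 10.7.3.1). The authors deposited mean spot and median local background intensities and processed intensities of both dyes, log10 ratios and values of the same arrays on a log10 scale. Mean intensities were corrected by normexp (offset 50), replacing any local background above 5 array medians by the array median, and normalized by loess within arrays. The number of arrays limits the precision. A gene entered a test if 3 or more of its arrays had a Cy5 signal well above background. Tests used limma 3.58.1 in R 4.3.3, with statmod 1.5.0, Benjamini-Hochberg adjustment over all tested genes and a threshold of 0.05, in place of the study's resampling test. The code was tested on simulated data. The members and gene lists were chosen with earlier results of these data known. Named were all members, up to 2 called genes of each list in each direction, Nfe2l2, Keap1 and the 10 genes most like the members. Replicate numbers name samples and did not pair them: correlations of deviations of same-numbered arrays ran from -0.455 to 0.644. Columns of the authors' own comparisons were not used.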

Additional observations from a re-analysis of the deposited data

How the results depend on the processing

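Members called from E15.5 to P0 (1, Lce3c) were 2 with the scanner software's own processed signals, likewise 2 with deposited ratios, and 0 with each spot's own local background and with all 27 arrays in 1 fit. From P0 to P7 (9), all 27 arrays in 1 fit gave 5. From P7 to adult in the wild-type (6), Cy5 alone gave 10, also with a replicate or slide block, and own local background, scaling between arrays and all 27 arrays in 1 fit gave 3 each. In this and the Keap1-/- comparisons below the groups shared no slide, so a slide block cannot separate slide from age or genotype. From P7 to adult in Nrf2-/- mice (9), scaling between arrays gave 2 and scan as a block 1. For Keap1-/- against wild-type mice (0), Cy5 alone, median centring and slide as a block gave 1 each, and all 27 arrays in 1 fit and Cy5 with a slide block gave 2. For Keap1-/- against double knockouts (1), the processed signals and the deposited ratios gave 0, and outlier-marked spots left out, all 27 arrays in 1 fit and Cy5 with a slide block gave 2. The cause was not tested. Leaving out each array in turn gave 0 to 2 for the latter, 0 to 1 for Keap1-/- against wild-type mice, 7 to 9 from P0 to P7, 9 to 10 from E11.5 to P7, 5 to 7 from P7 to adult and 6 to 10 in Nrf2-/- mice, and in Cy5 alone 0 to 5, 0 to 3, 7 to 10, 8 to 10, 10 and 10. In Cy5 it gave 0 to 1 from E15.5 to P0 and 0 to 4 for Nrf2-/- against wild-type adults. No setting reversed the sign of a called member. Shares of all genes called are not given for changed settings other than Cy5 alone, so these counts only describe how calls moved. The replicate block, with numbers that do not pair the arrays, gave 7 members called by ratio from P7 to adult and, in Cy5 alone, 0 for Keap1-/- against wild-type mice in place of 1, and moved no other count beyond 1.5 times. Alternatives on Cy5 with a block or an array left out, and those of the F-test, were chosen after seeing the data. Nothing is known of absolute amounts from a ratio whose reference channel moves.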
